A study of Mus musculus with 7 samples.

Results

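The glomerular basement membrane genes were followed in DNase-Seq data of cultured mouse podocytes. The rule for the set names 10 genes and uses no measured value: *Col4a1*, *Col4a2*, *Col4a3*, *Col4a4*, *Lama5*, *Lamb2*, *Lamc1*, *Nid1*, *Nid2* and *Agrn*. Their peaks were those that overlapped 500 nt on either side of any protein-coding transcription start site (TSS). *Col4a1*/*Col4a2* and *Col4a3*/*Col4a4* each start head to head and were counted as 1 promoter, which gave 8 promoters with 19 TSSs. They held 14 of 1036304 peaks in normal glucose, 18 of 846027 in high glucose with the control mimic and 14 of 900109 in high glucose with the miR-93 mimic.

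DNase-Seq reads the DNA released where DNase I cuts open chromatin. The cells were a conditionally immortalised mouse podocyte line, differentiated in culture, growth arrested in low serum and then kept for 36 h in 1 of 3 conditions. NG cells had 5 mM glucose, and the labels name no mimic for them. HG+NT cells had 25 mM glucose and 50 nM of a nontargeting mimic, and HG+miR-93 cells had 25 mM glucose and 50 nM of a miR-93 mimic, a synthetic form of the microRNA. Each condition had 2 replicates, and 1 library of digested genomic DNA served as the common input. NG and HG+NT differ in glucose and in transfection, which cannot be told apart here.

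Podocytes and the endothelial cells of the glomerular capillary make the basement membrane between them. Type IV collagen chains form its network: the alpha-1 and alpha-2 chains are widespread, whereas the alpha-3 and alpha-4 chains belong to the network of the mature glomerulus. Laminin of the mature membrane combines the alpha-5, beta-2 and gamma-1 chains, nidogens bind laminin to collagen IV, and agrin is a heparan sulphate proteoglycan of the same layer. Mutations of *Col4a3* or *Col4a4* cause Alport syndrome and those of *LAMB2* cause Pierson syndrome, in which this filter fails.

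Each condition had a single list of peaks, made from both replicates together. There was therefore no spread between replicates, no difference between conditions could be tested, and "higher" and "lower" below describe these lists. Each peak was described by its fold, the fragments at the summit over the local mean of the input, each increased by 1. A promoter's percentile is the place of its strongest peak by fold among the promoters of the 21835 protein-coding genes that held a peak in every list. A percentile ranks a promoter within its own list, which sets lists of unequal depth on 1 scale, although a shallower list carries more counting error. The pileup is the number of fragments at the summit, scaled to the depth of the input. The lists were 2.24 (NG), 3.85 (HG+NT) and 5.15 (HG+miR-93) times as deep as the input, and the median peak held 6, 10 and 12 fragments. Intervals of a pileup or a percentile are 95% and cover the counting error of the DNase fragments only, with the input mean held fixed. Those of a change join the opposite bounds of such intervals, so their own level is not 95%. Peaks with a q of 0.01 or less numbered 73 (NG), 94 (HG+NT) and 1 (HG+miR-93), and no member promoter was among them. Every member peak had a −log10 q of 0.

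The sequences just upstream of 4 start sites are printed here, picked for the traits named below and not as typical of the set. They were taken from RefSeq promoters on GRCm38, which matched 7 of the 10 genes with 8 promoters; *Col4a3*, *Lamc1* and *Nid2* were not matched. RefSeq and GENCODE place the starts of *Lamb2*, *Nid1* and the downstream *Agrn* TSS at different bases. Only the run free of annotated exons is printed, 5′ to 3′ on the strand of the gene. Capitals mark the GC box, GGGCGG on either strand, the usual binding sequence of Sp1 and related factors. *Lama5* is shown because its promoter was the most accessible of the set in NG, *Agrn* for its row of GC boxes, *Col4a4* because its run lies between the head-to-head collagen genes, and *Lamb2* for its low GC content.
*Lama5*, chr2:180225860-180226109, minus strand: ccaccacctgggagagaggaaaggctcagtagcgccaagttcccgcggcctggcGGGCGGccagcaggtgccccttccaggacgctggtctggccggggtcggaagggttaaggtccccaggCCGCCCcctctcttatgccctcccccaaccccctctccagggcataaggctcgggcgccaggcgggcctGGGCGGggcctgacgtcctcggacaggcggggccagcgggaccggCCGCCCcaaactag
*Agrn*, chr4:156197489-156197738, minus strand: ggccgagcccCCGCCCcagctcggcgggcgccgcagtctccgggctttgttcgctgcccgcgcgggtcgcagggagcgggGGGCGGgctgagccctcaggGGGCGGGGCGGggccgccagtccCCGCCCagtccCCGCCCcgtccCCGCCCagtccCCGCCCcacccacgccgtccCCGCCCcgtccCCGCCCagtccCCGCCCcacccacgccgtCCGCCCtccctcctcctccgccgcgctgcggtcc
*Col4a4*, chr1:82586850-82586920, minus strand: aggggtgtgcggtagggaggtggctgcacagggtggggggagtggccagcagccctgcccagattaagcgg
*Lamb2*, chr9:108479612-108479735, plus strand: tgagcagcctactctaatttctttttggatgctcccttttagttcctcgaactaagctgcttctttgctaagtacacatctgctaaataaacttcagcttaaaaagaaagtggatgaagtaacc

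Over the 300 bases from 250 before to 50 after the TSS, 7 of the 8 matched promoters were above the median GC content of all promoters, 57.0%. The far upstream *Agrn* promoter had 83.3% GC and 12 GC boxes, and the promoter of *Lama5* had 72.7% and 4. *Lamb2* stood at the other end, with 44.0% GC, a CpG observed-to-expected ratio of 0.276 against a median of 0.588, and no GC box. A GC box was found in 6 of the 8 promoters and in 47.7% of 20143 RefSeq promoters. The CCAAT box (CCAAT on either strand), the binding sequence of NF-Y, was found in 3, those of *Col4a1*, *Col4a2* and *Nid1*, against 37.8% of all. The windows of *Col4a1* and *Col4a2* overlap, so that they share letters. None of the 8 held the TATA box as TATAAA, which 12.1% of all promoters held. None held the AP-1 sequence TGANTCA, held by 7.0% of all, or the LIM homeodomain sequence TAATTA, held by 4.48%. *Lmx1b*, a podocyte regulator, belongs to the LIM homeodomain class. Both strands were searched, and none of the 5 motifs contains another.

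Most of these promoters ranked above the middle of their list. The median percentile of the 8 promoters was 72.7 (NG), 70.6 (HG+NT) and 77.1 (HG+miR-93), and 7, 6 and 7 of the 8 lay above 50. At the main TSS alone, ranked among main TSSs, the medians were 67.6, 46.1 and 61.3, with 6, 4 and 5 of the 8 above 50. *Lama5* was first or second of the 8 in each list and *Nid1* the last in both HG lists. The order of the promoters changed between lists, most of all through *Lamc1*, which was the lowest of the 8 in NG and the highest in HG+NT. Neighbours in each order had overlapping counting intervals.

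**Figure D1:**
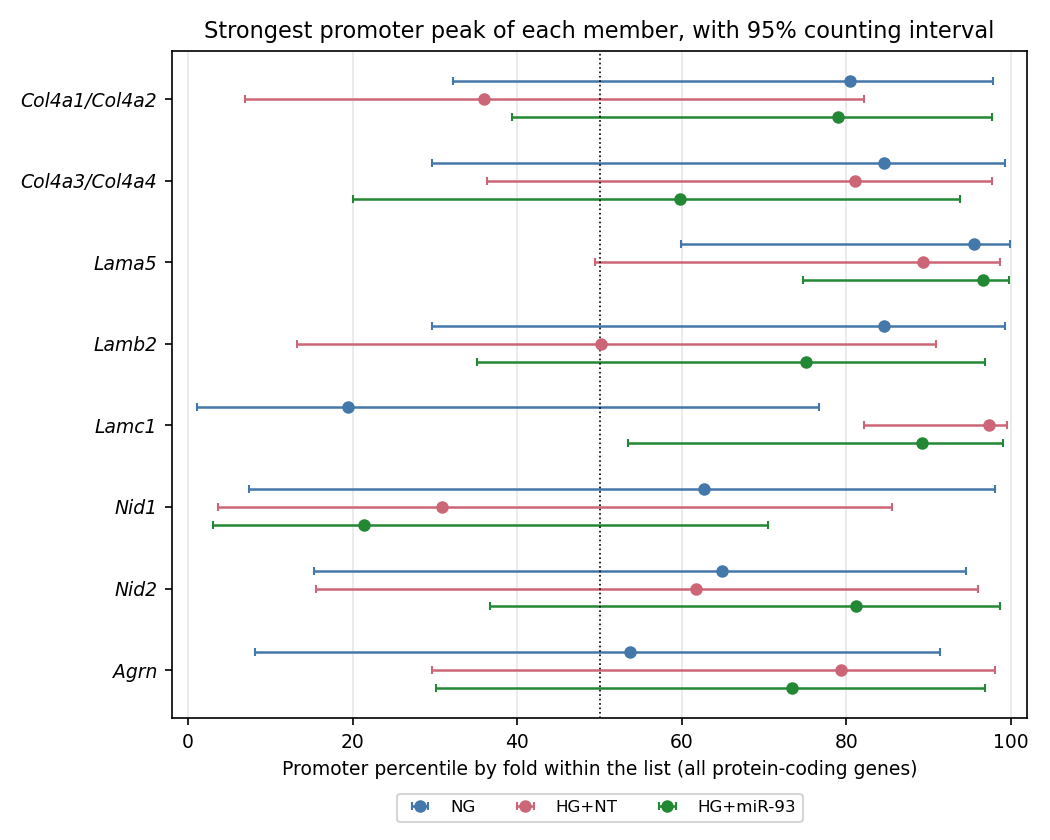
Percentile of the strongest promoter peak of each member, ranked by fold among all protein-coding genes of the same list (x axis, 0 to 100), in NG (blue), HG+NT (red) and HG+miR-93 (green). Points are the values and bars the 95% counting intervals, with the input mean held fixed. *Lamc1* stands at 19.5 in NG and 97.3 in HG+NT, and those are the only bars of 1 promoter that lie apart. The share of all genes with bars apart was not counted.

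From NG to HG+NT, *Lamc1* and *Agrn* were higher by at least 25 points, 2 of 8 promoters against 20.0% of all genes. *Col4a1*/*Col4a2*, *Lamb2* and *Nid1* were lower by at least 25 points, 3 of 8 against 20.3%. The median change was −4.91 points over the 8 promoters, with 2 higher and 6 lower, and 0.0916 over all genes. From HG+NT to HG+miR-93, only *Col4a1*/*Col4a2* was higher by at least 25 points, 1 of 8 against 16.1%, and 0 of 8 were lower against 16.0%. *Lamb2* came close with 24.9. The median change there was 0.655 points, with 4 higher and 4 lower, against 0.0321 over all genes. HG+NT was the highest of the 3 lists at 2 of 8 promoters (*Lamc1* and *Agrn*) and the lowest at 4 of 8 (*Col4a1*/*Col4a2*, *Lama5*, *Lamb2* and *Nid2*), where each order takes 31.0% of all genes. With 8 promoters, none of these shares is taken as particular to the members.

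The pileup leaves the input aside. At 0 of 8 promoters did the intervals of NG and HG+NT lie apart, against 2.91% of all genes, and likewise 0 of 8 for HG+NT and HG+miR-93, against 2.33%. The same held for each of the 14 distinct TSS windows of the set, of which 8 lie at the main TSS, that of the longest transcript, and 6 at internal or alternative ones.

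**Figure D2:**
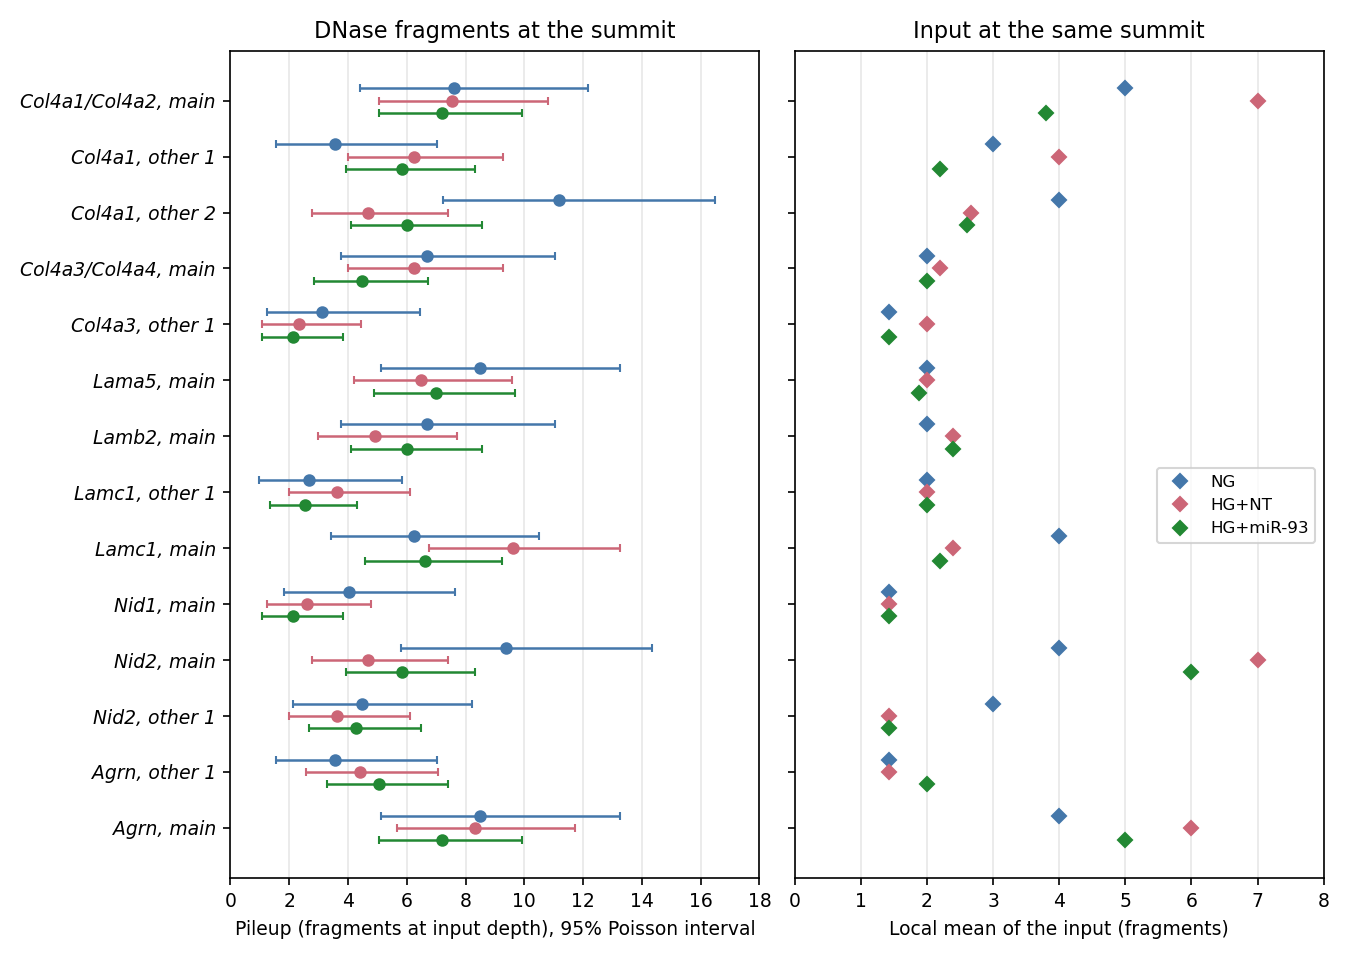
Pileup at the summit (left, in fragments scaled to the input library; bars are 95% exact Poisson intervals) and local mean of the input at the same summit (right, fragments) for the 14 distinct TSS windows, coloured by condition. "Main" is the TSS of the longest transcript and "other" an internal or alternative TSS; the pileup intervals overlap in each window, whereas the input mean ranges from 1.43 to 7.0.

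The alpha-3 and alpha-4 collagen genes had the most stable promoter in position. *Col4a3* (chr1:82586921-82722059, plus strand) and *Col4a4* (chr1:82448423-82586849, minus strand) share 1 peak in each list, and its summit lay in the *Col4a3* untranslated exon 181, 88 and 70 bp downstream of the coding *Col4a3* TSS (values here and below run in the order NG, HG+NT, HG+miR-93). The 3 summits lay within 111 bp of each other. The percentile was 84.6, 81.1 and 59.7, the fold 2.57, 2.26 and 1.82, and the pileup 6.70, 6.23 and 4.47. HG+miR-93 was lowest on all 3 scales, with a pileup interval of 2.83 to 6.71 against 3.75 to 11.1 in NG and 3.99 to 9.27 in HG+NT. The input mean was nearly even here, at 2.0, 2.2 and 2.0 fragments. The step between the HG lists was −21.4 points, with a counting interval from −77.6 to 57.5.

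An internal TSS of *Col4a3*, 82715304, was weaker, with percentiles of 37.7, 9.97 and 21.3 and pileups of 3.13, 2.34 and 2.14. The shared promoter was thus the more accessible of the sites of this pair in all 3 lists. Its upstream run is the 71 bases printed above, which hold none of the motifs.

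*Col4a1* (chr8:11198423-11312826, minus strand) and *Col4a2* (chr8:11312805-11449287, plus strand) encode the widespread chains, and their first exons overlap. At this shared promoter the percentile was 19.0 (NG), 8.36 (HG+NT) and 51.7 (HG+miR-93), and the fold 1.43, 1.07 and 1.71. The pileup hardly differed, at 7.59, 7.53 and 7.19. The input mean at the summits did: it was 5.0, 7.0 and 3.8 fragments. The summits lay 434 bp inside *Col4a1*, 1099 bp upstream of its TSS and 523 bp inside it, so the HG+NT fold was read at another site. The gap in fold between the lists thus came with a gap in the input and not in the fragments.

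The strongest peaks of this pair lay at internal *Col4a1* starts. Their percentiles were 80.5, 36.0 and 79.0, which gave changes of −44.5 and then 43.0 points with intervals from −90.9 to 50.0 and from −42.8 to 90.8. In NG the peak lay at the internal TSS 11279656 with a pileup of 11.2 (7.23 to 16.5), the largest of any member window. In HG+NT the peak at that TSS had a pileup of 4.67 (2.77 to 7.39), and in HG+miR-93 one of 6.02 (4.09 to 8.55). Those intervals overlap, NG and HG+NT by a narrow margin. In HG+miR-93 the strongest peak was at another internal TSS, 11210831, with its summit 2500 bp away in a coding exon, so that the pair's value does not follow 1 site. The gain between the HG lists was 2.96 points when ranked by pileup, and 1.31 by summed folds. The median gene of chromosome 8 was higher in HG+NT than in NG by 11.7 points and changed by −0.0435 points between the HG lists. The part of the chromosome in the values of the pair was not tested.

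The laminin chains held both the most accessible promoter of the set and the largest difference. *Lama5* (chr2:180176373-180225859, minus strand), the alpha-5 chain, had percentiles of 95.6, 89.3 and 96.6, folds of 3.16, 2.50 and 2.78 and pileups of 8.49 (5.11 to 13.3), 6.49 (4.20 to 9.58) and 7.0 (4.90 to 9.69). It was slightly lower in HG+NT than in the other lists, and its intervals overlapped throughout. The input mean was nearly even, at 2.0, 2.0 and 1.88 fragments. The summits lay 463 and 188 bp downstream of the TSS in NG and HG+NT and 55 bp upstream in HG+miR-93, the last of these within the printed sequence.

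*Lamb2* (chr9:108479736-108490530, plus strand), the beta-2 chain, had percentiles of 84.6, 50.2 and 75.1. The fold was 2.57, 1.75 and 2.07 and the pileup 6.70 (3.75 to 11.1), 4.93 (2.97 to 7.71) and 6.02 (4.09 to 8.55). It was lowest in HG+NT, by −34.4 points from NG (interval −86.1 to 61.3), and higher by 24.9 in HG+miR-93 (−55.9 to 83.6). All 3 summits lay upstream of the first TSS, by 776, 224 and 340 bp, and the HG+NT peak ended before that TSS. The summits of the HG lists were 116 bp apart.

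*Lamc1* (chr1:153218922-153332786, minus strand), the gamma-1 chain, had a percentile of 19.5 (NG), 97.3 (HG+NT) and 89.2 (HG+miR-93). The fold was 1.45, 3.12 and 2.38. The step from NG to HG+NT was 77.8 points, with a counting interval from 5.44 to 98.5. It was the only change among the 8 promoters in either comparison whose interval did not include 0. The interval holds the input mean fixed at each summit and leaves out the counting error of the input itself. The share of all genes with such an interval was not counted, so this is not taken as particular to *Lamc1*. Between the HG lists it was −8.05 (−46.1 to 17.0). The pileup was 6.25 (3.42 to 10.5), 9.61 (6.77 to 13.2) and 6.61 (4.58 to 9.23), so that the fragments of NG and HG+NT differed 1.54-fold with overlapping intervals. The input mean at the summit was 4.0 in NG and 2.4 and 2.2 in the HG lists, and summits lay 154 bp downstream and 361 and 158 bp upstream of the TSS. The step in fold from NG to HG+NT thus joined a step in fragments with a step in the input, read at summits 515 bp apart. The internal *Lamc1* TSS, 153229144, gave percentiles of 8.69, 34.7 and 14.8 with pileups of 2.68, 3.64 and 2.53. By percentile HG+NT was highest and NG lowest there, as at the main TSS, whereas by pileup HG+miR-93 was lowest.

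**Figure D3:**
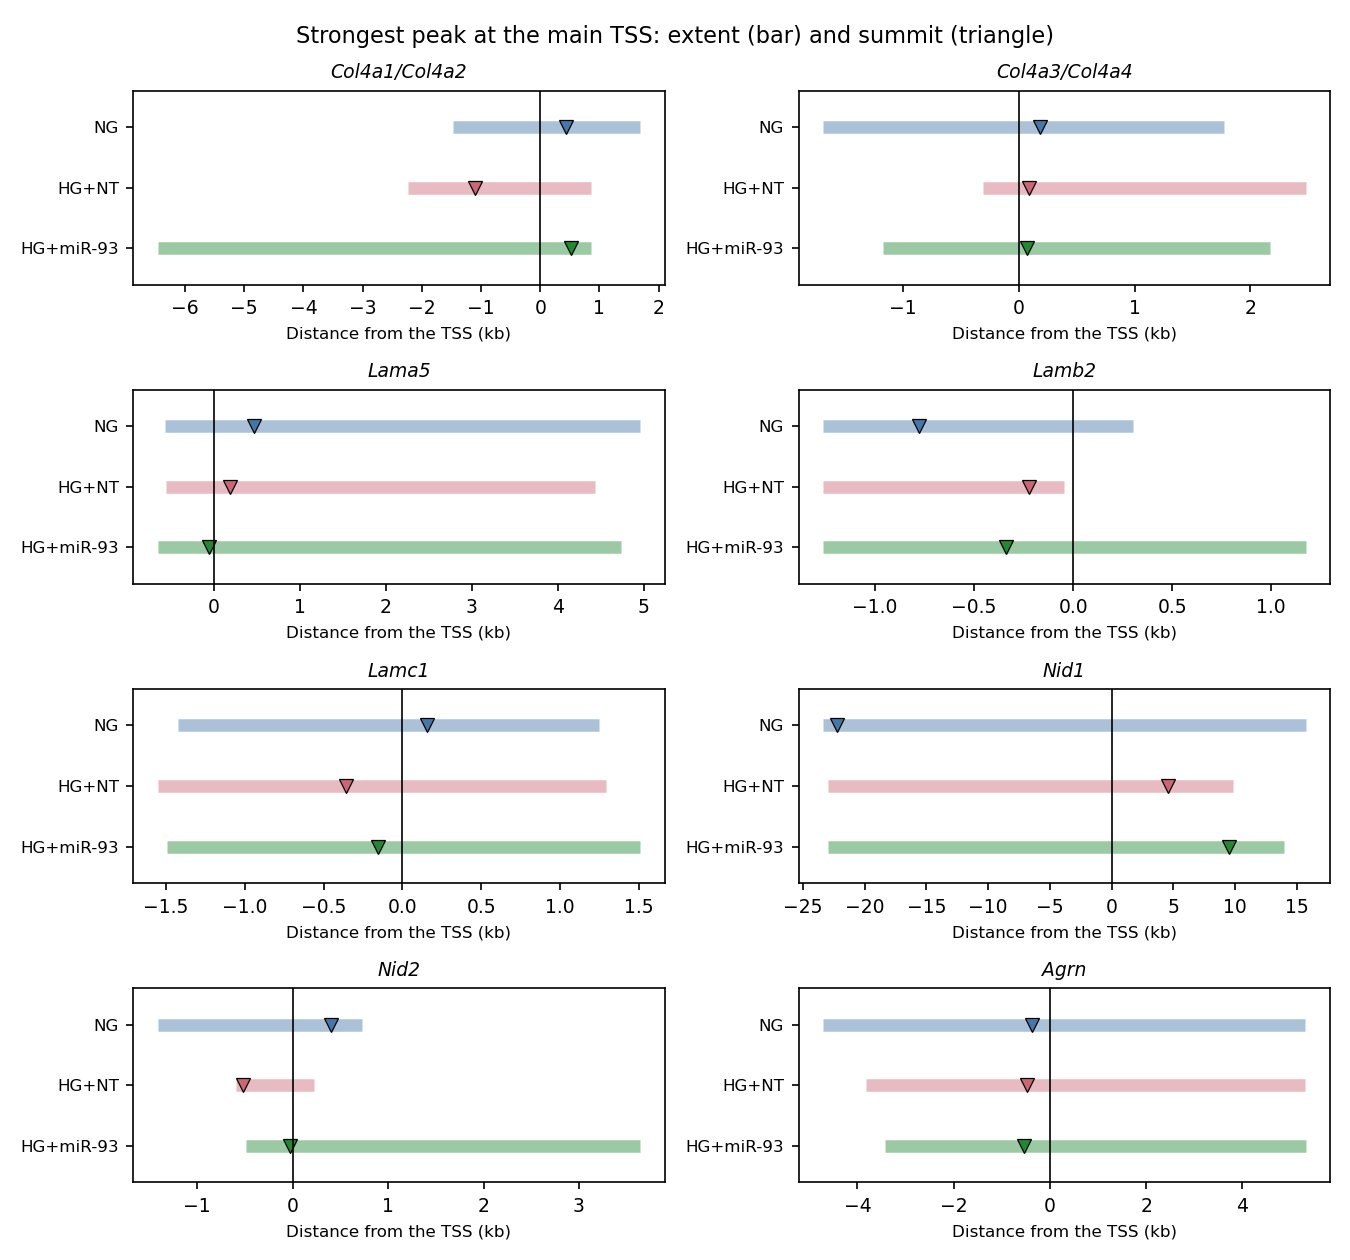
Extent (bar) and summit (triangle) of the strongest peak at the main TSS of each promoter, as distance from the TSS in kb in the direction of transcription, 1 row per condition; pairs are drawn from the *Col4a1* and the *Col4a3* TSS. Each panel has its own scale: summits of *Col4a3*/*Col4a4* stand together, whereas those of *Nid1* lie up to 22281 bp from the TSS.

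Of the nidogens, *Nid1* gave values that say little about its start site. *Nid1* (chr13:13437551-13512269, plus strand) lay inside a single wide region in each list, of 39111, 32767 and 36941 bp, whose summit was 22281 bp upstream of the TSS in NG and 4593 and 9488 bp downstream in the HG lists. Percentiles were 62.7, 30.9 and 21.3 and pileups 4.02, 2.6 and 2.14 on the background input of 1.43 fragments. Only 9, 10 and 11 fragments stood behind them. These were the lowest pileups of the 8 strongest peaks in each list, and they do not measure the *Nid1* promoter itself.

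*Nid2* (chr14:19751265-19811787, plus strand) had percentiles of 64.9, 61.8 and 81.2, but at different sites. In NG the strongest peak was at the main TSS, and in the HG lists at a second TSS, 19768237, whose summits lay in a coding exon. At the main TSS the percentile was 64.9 (NG), 1.05 (HG+NT) and 5.94 (HG+miR-93), the fold 2.08, 0.709 and 0.976, and the pileup 9.38 (5.81 to 14.3), 4.67 (2.77 to 7.39) and 5.83 (3.93 to 8.32). Input means were 4.0, 7.0 and 6.0 fragments, so the HG summits were below the input. At the second TSS the order turned round, with 15.9, 61.8 and 81.2 and pileups of 4.47, 3.64 and 4.28. At the main TSS the HG summits had fewer fragments and a higher input mean than the NG summit. At the second TSS the summits differed mainly in the input mean, 3.0 in NG and 1.43 in both HG lists. The input was 1 library common to the lists, so these means were read from it at summits in different places.

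*Agrn* (chr4:156165290-156197488, minus strand) also changed sites. Its percentiles were 53.7, 79.4 and 73.4, from the far upstream TSS, 156197488, in NG and from the downstream TSS, 156185901, in the HG lists. At the far upstream TSS, with the 12 GC boxes, they were 53.7, 20.7 and 24.9. The pileup was nearly level there, at 8.49, 8.31 and 7.19, while the mean of the common input at each list's own summit was 4.0, 6.0 and 5.0. At the downstream TSS percentiles were 50.9, 79.4 and 73.4 and pileups 3.57, 4.41 and 5.05, with summits 1251 bp upstream and 2374 and 6985 bp downstream of it. The change of *Agrn* from NG to HG+NT, 25.7 points with an interval from −61.8 to 90.0, thus set the upstream TSS in NG against the downstream one in HG+NT, with summits 14339 bp apart. At the downstream TSS alone the change was 28.5 points, and at the upstream TSS −33.0.

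Taking only the TSS of the longest transcript of each gene, a choice made after these values were seen, turned *Agrn* round. By this measure 1 of the 8 promoters, *Lamc1*, was higher by at least 25 points from NG to HG+NT (73.1) against 21.0% of all genes, and 4 of 8, *Lamb2*, *Nid1*, *Nid2* and *Agrn*, were lower (−30.2, −30.2, −67.2 and −32.8) against 21.1%. From HG+NT to HG+miR-93, 1 of 8 was higher, *Col4a1*/*Col4a2* (46.5), against 16.7%, and 0 of 8 were lower against 17.1%. Counted by sign alone, 7 of the 8 main promoters were lower in HG+NT than in NG, against 50.1% of all genes, and 5 of the 8 were higher with miR-93 than with the control mimic, against 50.3%. The 7 include *Nid1*, whose value does not measure its promoter. At the main promoters of *Col4a1*/*Col4a2*, *Col4a3*/*Col4a4*, *Lamb2*, *Nid2* and *Agrn*, the common input had a higher mean at the HG+NT summit than at the NG summit. The part of the input and of the summit position in their ranks was not tested.

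The strongest peaks of a promoter overlapped between lists more often than their summits met, among the members as among all genes. Peaks of NG and HG+NT overlapped by at least 1 bp at 6 of 8 promoters against 84.5% of all genes, those of NG and HG+miR-93 at 5 against 83.9%, and those of HG+NT and HG+miR-93 at 7 against 85.1%. Summits within 150 bp were found at 1, 1 and 2 promoters, against 26.7%, 25.5% and 30.7% of all genes. *Col4a3*/*Col4a4* was the promoter with such summits in all pairs, and *Lamb2* joined it in the HG lists.

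Strong peaks were also counted along the whole genes and 10000 bp upstream, among the 20000 strongest of each list with ties kept. The members held 23 (NG), 22 (HG+NT) and 21 (HG+miR-93), and among the 50000 strongest 34, 45 and 52. Over all chromosomes the 20000 strongest stood at 10.6, 7.89 and 7.80 per Mb. The density over all members together was not computed, so their totals are not read against it. The 50000 strongest were not set against such a density, so their counts are not read as a trend of the set. Both collagen IV loci are given beside the density of their own chromosome. The *Col4a3*/*Col4a4* locus held 9, 2 and 2, or 32.9, 7.31 and 7.31 per Mb, where chromosome 1 had 10.2, 5.29 and 4.98. Among these 9 NG peaks were the shared promoter and 6 along the *Col4a3* gene body, 25653 to 88905 bp from its TSS, with folds from 2.25 to 2.59. The *Col4a1*/*Col4a2* locus held 7, 10 and 12, or 27.9, 39.9 and 47.8 per Mb, where chromosome 8 had 12.0, 19.2 and 21.0. Locus and chromosome rose in the same order, so this rise is not taken as particular to the pair. Of the strong peaks of this locus, 9 of 10 and 8 of 12 in the HG lists lay within *Col4a2*, against 4 of 7 in NG. Ties made the NG selection larger, with 28769 peaks against 21479 and 21234, which the values per Mb of the whole chromosome share.

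Sites were called recurrent where summits of these strong peaks in different lists lay within 150 bp, and few were. In a *Col4a2* intron, summits at 11419335 (HG+NT) and 11419313 (HG+miR-93) were 22 bp apart, with folds of 2.56 and 2.65. A site about 5.9 kb upstream of *Agrn* was found in NG and HG+NT with summits 42 bp apart and folds of 2.69 and 2.58. Within *Lama5*, 180197279 and 180197342 in the HG lists were 63 bp apart, with folds of 2.12 and 2.17. Within *Col4a1*, NG and HG+miR-93 shared 2 sites, with summits 90 and 113 bp apart. No site recurred in all 3 lists by this measure, although the promoter peak of *Lama5*, with summits farther apart, was an overlapping region in each list. *Lamc1* had 0 strong peaks in NG, but 3 with the control mimic and 1 with miR-93, and its promoter peak was among them in both HG lists.

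**Figure D4:**
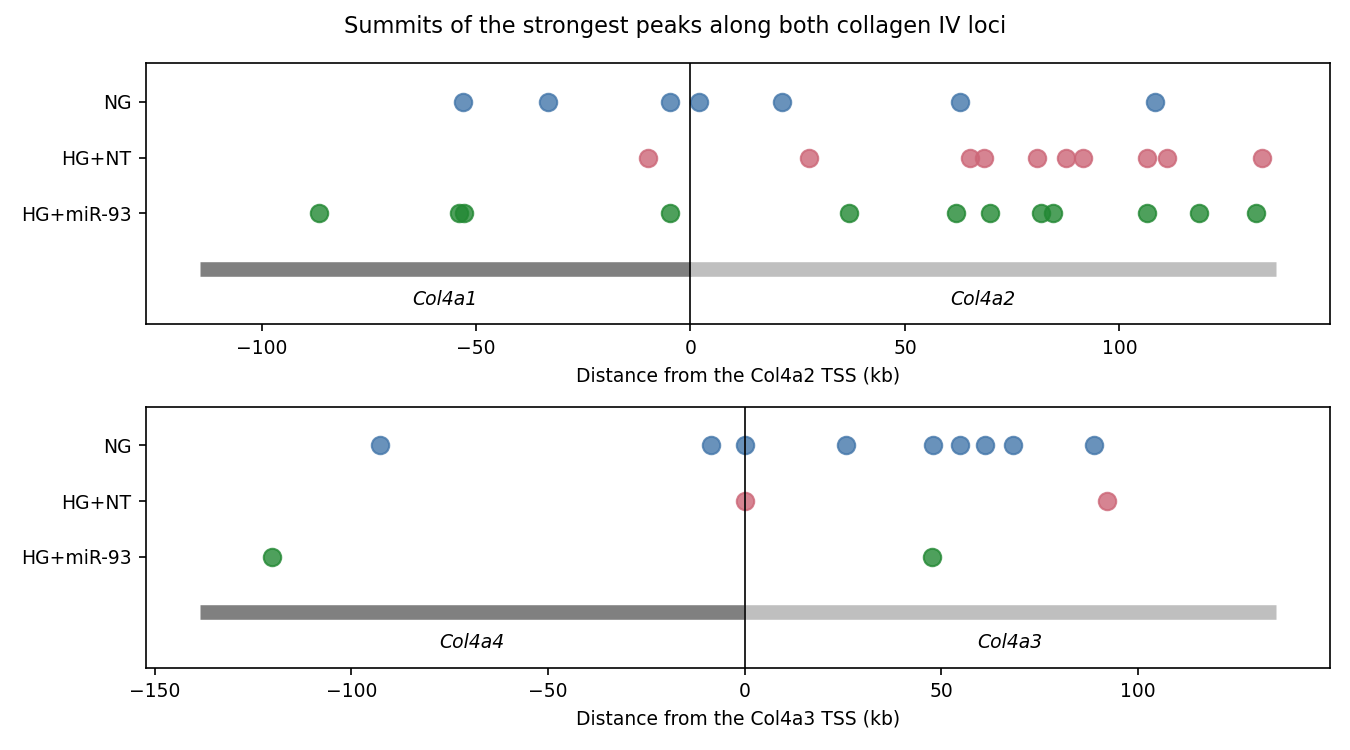
Summits of the 20000 strongest peaks of each list along *Col4a1*/*Col4a2* (top) and *Col4a3*/*Col4a4* (bottom), as distance in kb from the *Col4a2* or *Col4a3* TSS; grey bars are the gene bodies. The upper locus holds 7, 10 and 12 summits, from the top row down, and the lower 9, 2 and 2. The density of strong peaks over the whole of chromosome 8 rose in the same order as the upper locus.

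Among other basement membrane genes, most had a greater percentile with high glucose and the control mimic than in NG. Of 19 genes of other collagen and laminin chains, perlecan, collagen chaperones and related matrix proteins, 16 were higher and 3 lower in HG+NT than in NG, where 50.2% of all genes were higher, with a median change of 20.1 points, beside −4.91 for the members and 0.0916 for all genes. By at least 25 points, 9 were higher (*Col15a1*, *Frem2*, *Hspg2*, *Lama1*, *Lama4*, *Lamb3*, *Lamc3*, *Serpinh1* and *Sparc*) and 2 lower (*Col4a5* and *Col4a6*), against the 20.0% and 20.3% of all genes given above. *Hspg2*, which encodes perlecan, had percentiles of 30.2, 93.0 and 96.8. *Frem2*, a matrix protein of epithelial basement membranes, had 15.9, 80.9 and 64.1. *Serpinh1*, the collagen chaperone HSP47, had 41.4, 78.7 and 60.9. *Lama1*, the alpha-1 chain of the immature membrane, had 33.5, 74.5 and 87.8. The pileup in NG and HG+NT was 5.36 and 7.01 at *Hspg2*, and 4.47 and 4.93 at *Frem2*. At *Serpinh1* it was 7.59 and 7.01, and at *Lama1* 4.02 and 4.15. The pileup intervals of NG and HG+NT overlapped at each of these genes, where 2.91% of all genes had them apart. These genes were picked after their values were seen and do not stand for the list. *Sparc*, also past the rule, had a larger step in pileup, 4.47 in NG and 7.01 in HG+NT.

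Of the 3 genes that were lower, *Tinagl1* went from 78.7 to 58.0, and the other two were the third collagen pair. *Col4a5* and *Col4a6* lie head to head on chromosome X, each counted as a gene here unlike the member pairs, and the alpha-5 chain joins alpha-3 and alpha-4 in the mature glomerular network. Their percentiles were 81.3 for both genes in NG, 17.1 and 11.3 in HG+NT and 59.0 for both in HG+miR-93. The median gene of chromosome X was higher by 11.4 points in HG+NT than in NG, and its part in these values was not tested. The *Col4a5* pileup was 4.91 (2.45 to 8.79), 2.08 (0.897 to 4.09) and 4.08 (2.53 to 6.24), with overlapping intervals. From HG+NT to HG+miR-93, 6 of the 19 genes were higher and 13 lower, where again 50.2% of all genes were higher, with a median of −11.3 points. *Col4a5* (42.0), *Col4a6* (47.7) and *Tinagl1* (40.3) were higher by at least 25 points, 3 of 19 against 16.1% of all genes, and *Fras1* (−35.9), *Lamb3* (−68.0) and *Lamc3* (−44.7) were lower, 3 of 19 against 16.0%.

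**Figure D5:**
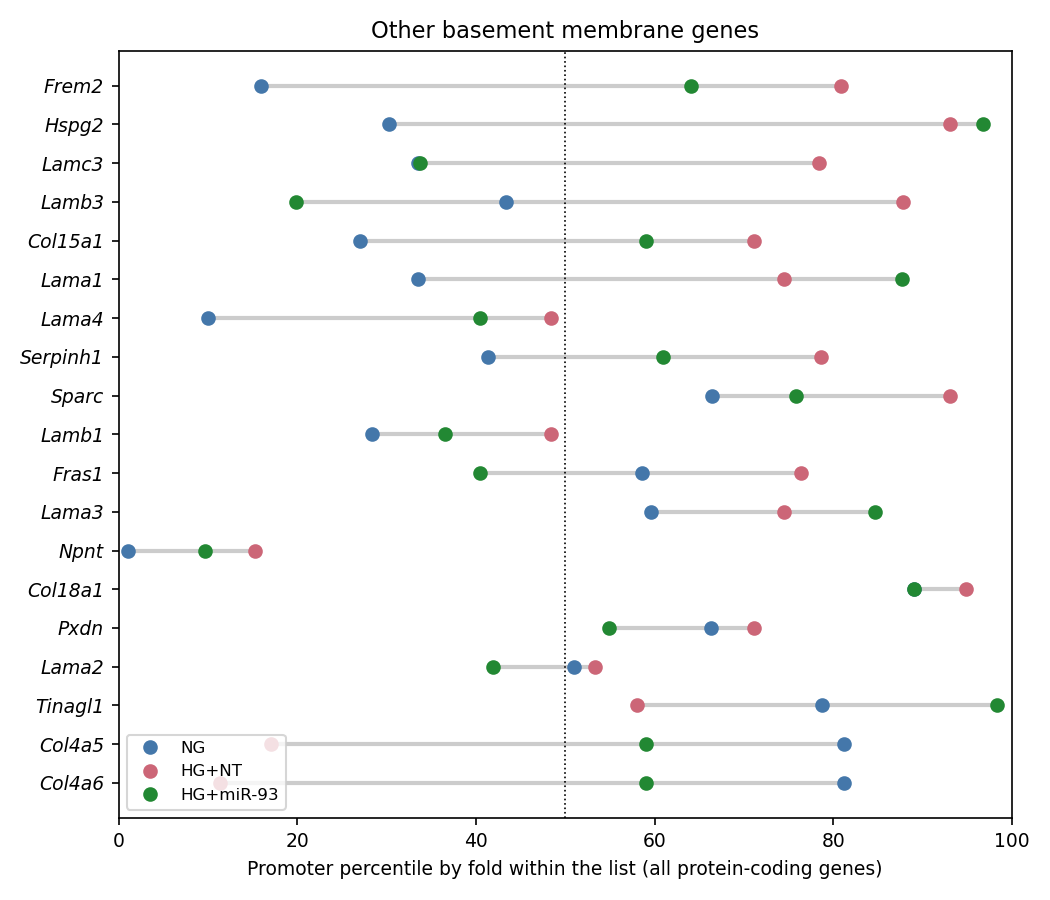
Promoter percentile (x axis, 0 to 100) of the 19 other basement membrane genes, coloured by condition and ordered by the change from NG to HG+NT; grey lines join the lowest and the highest of the 3 values. HG+NT is above NG in 16 of the 19 and far below it in *Col4a5* and *Col4a6*.

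Podocyte marker promoters gave a mixed check of the cell type. *Synpo*, the actin-associated synaptopodin, had percentiles of 91.1, 96.3 and 71.4. *Podxl*, the podocalyxin gene, had 90.4, 13.6 and 75.9. *Nphs1*, the nephrin gene of the slit diaphragm, had 9.99, 55.0 and 64.1. Over these 3 podocyte markers the range was 9.99 to 91.1 (NG), 13.6 to 96.3 (HG+NT) and 64.1 to 75.9 (HG+miR-93). The endothelial *Cdh5*, *Kdr* and *Pecam1* and the mesangial *Pdgfrb* and *Itga8* had ranges of 27.0 to 62.7, 43.4 to 94.0 and 47.7 to 87.8, which overlap those of the podocyte markers in each list. *Pdgfrb*, at 27.0 in NG and 94.0 in HG+NT, showed the largest shift of these 5. The part of cell state in the member values was not tested, and more open alleles per cell cannot be told apart from more cells with an open promoter.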

How the data were processed

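Before deposit, the authors cleaned the DNase-Seq reads (TrimGalore!), aligned them to the mm10 genome (Bowtie), dropped duplicate reads and ran MACS2 with the genomic DNA input as control. The submitters' processing notes also name CASAVA 1.8.2. Judging by their names, the 3 lists are joint over the 2 replicates of a condition. Per the deposited lists, the authors' fold is the ratio of summit fragments to the local input mean, each plus 1, and their −log10 p and −log10 q come from a Poisson model. The authors' own comparison counted reads near each TSS, which was not repeated here.

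Fragments and input means were solved from the fold and −log10 p, with a unique solution for every member peak. Start sites came from GENCODE vM21 (GRCm38), protein-coding transcripts only, and each promoter took its strongest peak by fold. Counting intervals of a percentile come from the exact Poisson bounds of the pileup at a fixed input, and those of a change from the opposite bounds of its ends.

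All members and markers are named, and of the 19 other genes those that shifted by at least 25 points. Some items of these lists are not reported here and were left out of their counts. *Serpinh1*, *Hspg2*, *Frem2* and *Lama1* were given in full after their values were seen. The members, gene lists and rules were chosen with earlier results of these data known. The steps were tested on simulated data. Computations used scipy 1.17.1, pandas 2.3.3 and numpy 2.4.6 under Python 3.11.15, and figures matplotlib 3.10.9.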

Additional observations from a re-analysis of the deposited data

How the results depend on the processing

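The change of *Lamc1* from NG to HG+NT kept its direction under each of the 8 alternatives that gave a value (33.1 to 91.1 points), *Nid1* under 6 (−38.6 to −15.4) and *Lama5* under 9 (−14.0 to −2.16), and that of *Col4a3*/*Col4a4* from HG+NT to HG+miR-93 under 9 (−35.3 to −15.1). The *Nid1* values all came from the wide region described above and do not measure its promoter, and it had no value with the summit inside the window. *Agrn* turned to −24.3 with the summit inside the window and to −32.8 at the main TSS alone, an alternative chosen after seeing the data. With summed folds, *Col4a1*/*Col4a2* turned to 6.61 and *Lamb2* to 21.3, and between the HG lists *Lamb2* turned from 24.9 to −25.3. The 43.0 points of *Col4a1*/*Col4a2* there became 1.31 with summed folds and 2.96 by pileup. From NG to HG+NT, *Col4a3*/*Col4a4* kept its direction under 5 of 9 alternatives and *Nid2* under 7 of 9. Between the HG lists, *Agrn* kept it under 6 of 8 and *Nid1* under 5 of 6. The cause of these turns was not tested.

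Beside 2 higher and 3 lower from NG to HG+NT, 1 promoter was higher with 1000 nt windows, by −log10 p, by pileup (1 lower) and at the main TSS alone. The count higher was also 1 with the summit inside the window (0 lower), with a −log10 p of at least 1 (1 lower, 5 promoters left) and with summed folds (0 lower). With the summit inside the window, 4 promoters had a value in every list. Beside 1 higher and 0 lower from HG+NT to HG+miR-93, 2 were higher with 1000 nt windows and relative to the chromosome median, 3 by −log10 p, 0 by pileup (1 lower), 2 with a −log10 p of at least 1 (1 lower), 0 with summed folds (1 lower) and 3 among the upper 50% of promoters (1 lower, 7 left). HG+NT was highest at 1 and lowest at 1 with the summit inside the window, highest at 1 with a −log10 p of at least 1 and at the main TSS alone, and highest at 4 and lowest at 1 with summed folds. Summits within 150 bp were shared at 1, 1 and 2 promoters in place of 6, 5 and 7 overlaps, and the 50000 strongest peaks put 34 (NG), 45 (HG+NT) and 52 (HG+miR-93) over member genes.

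No paired analysis was possible because each list pools its replicates, and for the same reason no replicate could be left out. With 9 to 37 fragments behind each strongest member peak, single promoters had wide intervals, and smaller differences were not detectable at this depth.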
